A study of Mus musculus with 14 samples.

Results

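The genes described here are 10 scavenger receptor genes, Msr1, Marco, Scara3, Scara5, Colec12, Stab1, Stab2, Scarf1, Scarf2 and Olr1, measured in lymphatic endothelium from lymph nodes of mice. They were taken by gene symbol and had 14 probes among the 55681 non-control probes of the array, or 10 genes of 34741 by name. Where a gene had more than 1 probe, the probe with the highest mean signal was chosen and the others are given beside it. All samples came from C57Bl/6 mice, and neither age nor the number of animals is in the labels. Laser-capture microdissection (LCM) gave 5 subcapsular sinus and 5 medullary sinus samples of 50 cells each, cut from frozen sections of inguinal, axillary and brachial nodes stained for CD31, an endothelial surface protein, and for the macrophage surface protein that Adgre1 encodes. Fluorescence sorting (FACS) gave 2 subcapsular and 2 medullary samples of 1200 cells each, from digested nodes of many sites stained with a lineage cocktail that included CD11b, with anti-CD73 and with anti-podoplanin. The medullary sinus samples are those labelled lymphatic sinus, on the efferent side, and the subcapsular sinus is on the afferent side. Each sample was amplified and hybridised to its own 1-colour array. The comparisons ask which genes differ between the sinuses in either isolation, whether that difference differs between isolations, and how the isolations differ from each other.

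Scavenger receptors are surface proteins that bind modified lipoproteins, microbial surfaces, matrix fragments and other altered or polyanionic ligands, and most of them carry their cargo into the cell. Class A receptors, among them Msr1 and Marco, are known above all from macrophages, whereas the stabilins are best known from sinusoidal endothelium of liver, spleen and lymph node, where they clear waste molecules from the passing fluid. Lymph reaches the node through the subcapsular sinus and leaves it through the medullary sinus, and both sinuses are lined by lymphatic endothelium with macrophages lying in and beside it.

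The probes on which the results turn are shown because Msr1, Scara5 and Stab2 each have probes that lie far apart in the gene and did not give the same values. Each array probe is 60 bases long, and bases 31 to 60 are printed 5′ to 3′ in lower case, as the scanner files give them. Positions are on mouse build mm9, on the strand stated, from the same files. Whether a probe lies in an exon of the coding part or in a UTR is not given in the sources used here.
Msr1 chosen probe, chr8:40709296-40709355, minus strand: aacactgcatgtcagagtccgtgaatctac
Msr1 probe B, chr8:40689158-40689217, minus strand: acggttaagtgtggaatattaacctgaact
Marco, chr1:122371115-122371134, minus strand: gtgtctttggttccacccacatggaaatct
Scara5 chosen probe, chr14:66357280-66357339, plus strand: gccaggtagccctggacttcctggatctcg
Scara5 probe B, chr14:66382904-66382963, plus strand: gaactagattgtacatgtgttctagaaccg
Stab1, chr14:31952288-31952347, minus strand: cagaggctctgagaagacacagaccatttt
Stab2 chosen probe, chr10:86303982-86304041, minus strand: tgttctgtattccagtacccagaagtacct
Stab2 probe B, chr10:86455257-86455316, minus strand: aatcctgaaaattcagaaaacaccaaaagc
Stab2 probe C, chr10:86381487-86381546, minus strand: attctttcttgtatatgcaaatatcttaag
The files assign the chosen Msr1 probe to both RefSeq transcripts of the gene and Msr1 probe B to only 1 of them. They assign the Scara5 probes to different RefSeq transcripts. Stab2 probes B and C are assigned to Ensembl transcripts and to no RefSeq transcript. The position listed for Marco spans only 20 of the probe's bases.

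All levels below are log2 signals over the 75th percentile of the same array, so that 0 is that percentile, and a level says nothing about the order of different genes, because probes differ in brightness. A probe counts as above background where the scanner software calls it well above background. Between 50.8% and 69.0% of probes were above background in subcapsular LCM, 67.3% to 75.3% in medullary LCM and 66.3% to 79.0% in FACS, and the correlation between arrays of a group was 0.66 to 0.85. All 4 FACS arrays were on slide 2 together with medullary LCM replicates 4 and 5, and the other 8 LCM arrays were on slide 1. Slide and isolation thus overlap almost wholly. The subcapsular FACS arrays were on row 1 of the slide and the medullary ones on row 2. Row and sinus therefore cannot be told apart in any FACS difference between the sinuses. On slide 1, subcapsular LCM replicates 1 to 4 were on row 1, and subcapsular replicate 5 and medullary replicates 1 to 3 on row 2. Of the defining markers of lymphatic endothelium, Prox1 and Pecam1 were above background on all 14 arrays. Lyve1 was above it on 3 and 3 of 5 LCM arrays and on 1 and 0 of 2 FACS arrays of the subcapsular and medullary sinus. In the same order, Flt4 was above it on 3 and 3 of 5 LCM and 0 and 1 of 2 FACS arrays. Pdpn, which encodes podoplanin, was above it on 1 and 4 of 5 LCM and 1 and 2 of 2 FACS arrays. Pecam1, which encodes CD31, had a mean of 4.62 on the subcapsular FACS arrays and -3.60 on the medullary ones, and Cdh5, the endothelial cadherin, was above background on 0 of 2 medullary FACS arrays. Csf1r, Adgre1, Siglec1 and Lyz2, all macrophage genes, and the T cell gene Cd3e were above background on all 14 arrays. Bulk signal cannot tell fewer cells of a type from less RNA per cell.

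The class A receptors Msr1 and Marco were higher in subcapsular than in medullary sinus samples taken by LCM. On the chosen probes the groups did not overlap, as was so in one direction or the other for 3.09% of all genes. Neither difference passed the test across all genes, and on the other probe of Msr1 the groups overlapped. Msr1 also was the only receptor called between the isolations, lower after FACS than after LCM, and this call was lost with the slide as a block (adjusted p = 0.751 in limma). The chosen probe of Scara5 was higher in medullary than in subcapsular FACS samples without overlap, as was so in one direction or the other for 69.6% of all genes, and did not pass the test, while its other probe overlapped. Stab1 and Stab2 spread widely among the LCM samples of a sinus, and Scarf1 was above background on 0 of 14 arrays.

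**Figure D1:**
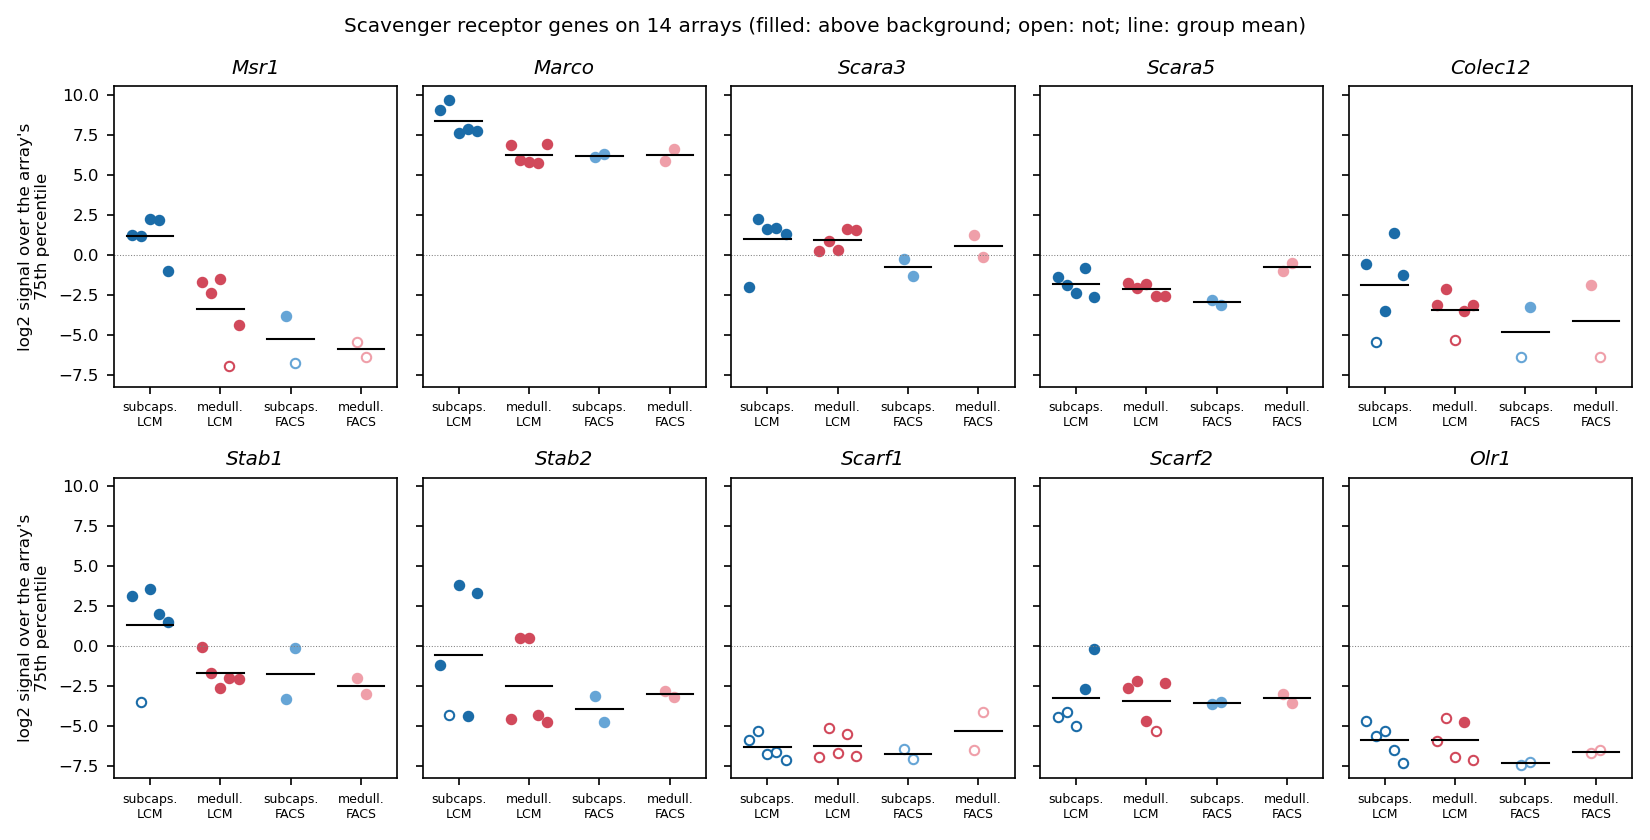
Log2 signal over the array's 75th percentile (vertical axis) of the chosen probe of each receptor gene in the 4 groups (horizontal axis). Each point is 1 array, filled where the probe was above background and open where it was not, and the line is the group mean. For Msr1 and Marco the 5 subcapsular LCM arrays lie above the 5 medullary LCM arrays, and Scarf1 has no filled point.

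Msr1 encodes the class A macrophage scavenger receptor, a trimeric protein with a collagen-like domain that takes up modified low-density lipoprotein. Its chosen probe gave 1.24, 1.17, 2.25, 2.16 and -1.02 on the subcapsular LCM arrays and -1.74, -2.40, -1.51, -6.99 and -4.42 on the medullary ones. The lowest subcapsular LCM array, replicate 5, stood just above the highest medullary one, replicate 3. The FACS arrays gave -3.82 and -6.78 for the subcapsular and -5.44 and -6.42 for the medullary sinus. Of these 4, only the first was above background, as were all 5 subcapsular LCM arrays and 4 of 5 medullary ones. The subcapsular LCM group was thus set apart, at 1.16 ± 1.32 (SD, n = 5) against -3.41 ± 2.30 (SD, n = 5) in medullary LCM, while the ranges of the other groups overlapped with the next in order.

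In LCM the Msr1 level was 4.57 lower in medullary than in subcapsular samples on the log2 scale, a fitted difference of -4.57 ± 1.10 (SE) or 23.8-fold, with an adjusted p of 0.175 in limma after Benjamini-Hochberg adjustment over 27353 genes. Probe B of Msr1 gave -5.96, 2.78, 0.15, 0.99 and 0.89 on the subcapsular LCM arrays and -3.51, -6.96, -6.14, -7.40 and -7.30 on the medullary ones. On probe B subcapsular replicate 1 was not above background and fell among the medullary arrays, of which only replicate 1 was above background. The difference on probe B was -6.03 ± 1.49 (SE), with an adjusted p of 0.186 in limma. With the slide as a block, and on slide 1 alone, the difference of the chosen probe was -3.04, with adjusted p-values of 0.253 and 0.182 in limma. Over 25 alternative settings, probe B and the mean of both probes among them, the Msr1 difference ranged from -6.03 to -2.81. Its adjusted p in limma ranged from 0.083 to 0.297. The -6.03 was that of probe B, the -2.81 that of another background correction (normexp), and the 0.083 that of the mean of both probes. Without medullary replicate 4, which was not above background on the chosen probe, the difference was -3.68. The 23.8-fold thus depends in part on signal near the floor.

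Between isolations Msr1 fell by 4.49 from LCM to FACS on the log2 scale (-4.49 ± 0.90, SE, 22.5-fold, mean of both sinuses), with an adjusted p of 0.0134 in limma. This was the only call among 8 receptors tested, where 1145 of 29654 genes (3.86%) were called. The difference was -6.46 within the subcapsular sinus (adjusted p = 0.0284 in limma) and -2.52 within the medullary sinus (adjusted p = 0.261 in limma). These within-sinus values were chosen after seeing the data, and the test of the difference between them is the interaction given below. The call was lost with the slide as a block (-1.43, adjusted p = 0.751 in limma) and on the medullary arrays of slide 2 alone (-0.23, adjusted p = 0.928 in limma). It was also lost without subcapsular FACS replicate 7 (-3.75, adjusted p = 0.106) and on probe B (-1.97, adjusted p = 0.426), both in limma. On probe B both subcapsular FACS arrays were above background, at -4.57 and -4.12, and both medullary FACS arrays, at -6.80 and -5.37, were not. The sinuses were not compared for the chosen probe in FACS, because it was above background on both arrays of neither sinus, and probe B gave a medullary minus subcapsular difference of -1.74 ± 0.76 (SE, adjusted p = 0.197 in limma). Since 3 of the 4 FACS values of the chosen probe were not above background, the fitted fold depends on signals near the floor.

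**Figure D2:**
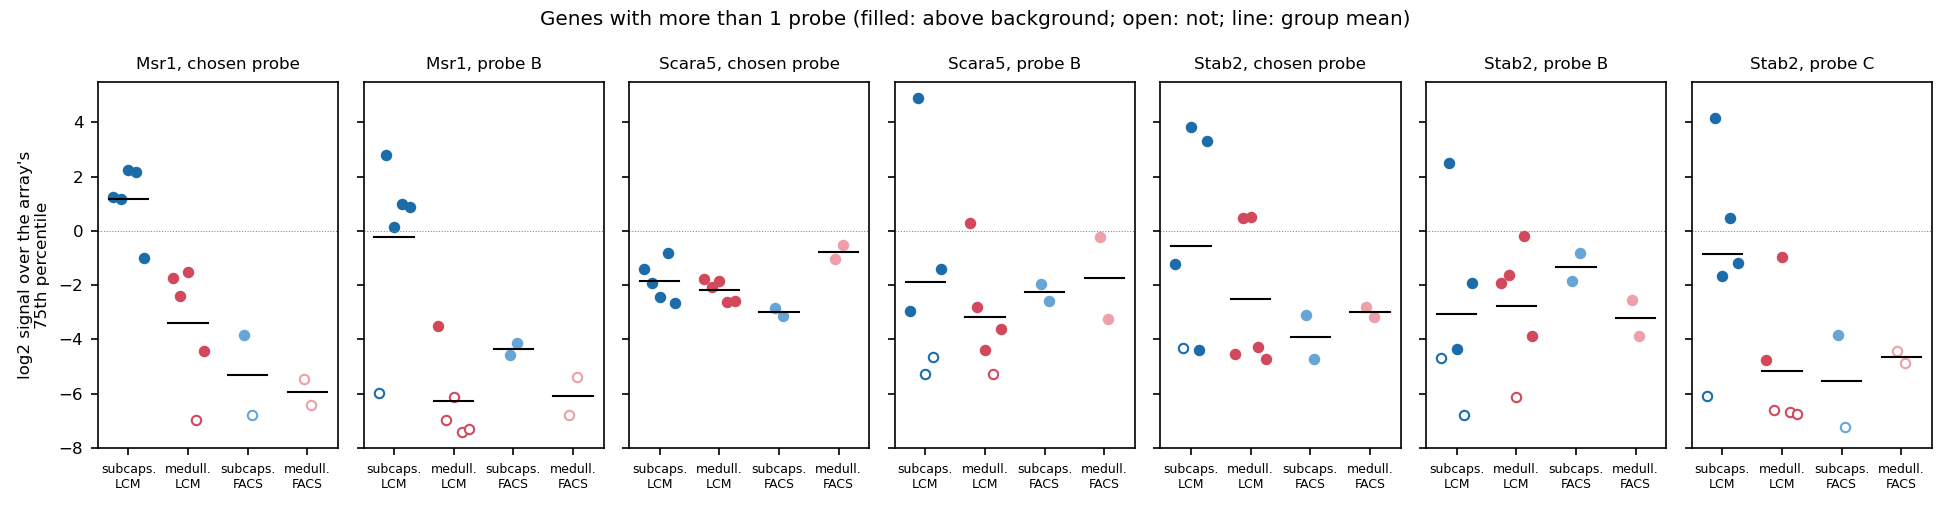
Log2 signal over the array's 75th percentile (vertical axis) of each probe of Msr1, Scara5 and Stab2 in the 4 groups (horizontal axis), 1 point per array, filled where above background, with the group mean as a line. The Msr1 probes both place most subcapsular LCM arrays above the medullary ones, whereas the Scara5 and Stab2 probes differ in which arrays are high.

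Marco encodes a class A receptor with a long collagen-like stalk and a cysteine-rich head that binds bacteria and particles. It was above background and unsaturated on all 14 arrays. The subcapsular LCM arrays gave 9.03, 9.68, 7.62, 7.83 and 7.71, and the medullary LCM arrays gave 6.86, 5.92, 5.78, 5.73 and 6.90. The subcapsular FACS arrays gave 6.07 and 6.31, and the medullary FACS arrays 5.85 and 6.58. Every subcapsular LCM array was above every other array, and the remaining 9 arrays covered about 1 log2 unit with their groups overlapping. In LCM the medullary level was lower by a fitted -2.14 ± 0.58 (SE) on the log2 scale, 4.40-fold, with an adjusted p of 0.218 in limma. This difference was -2.19 with the slide as a block and ranged from -2.33 to -1.41 over 24 alternative settings, none of which called it. In FACS the difference was 0.03 ± 0.61 (SE), with a 95% interval of -1.68 to 1.73 and an adjusted p of 0.977 in limma. The FACS minus LCM difference was -1.10 ± 0.44 (SE), with an adjusted p of 0.228 in limma. It was -2.19 within the subcapsular and -0.02 within the medullary sinus, neither called. For the other 6 receptors tested, the FACS minus LCM difference ran from -1.95 ± 1.00 (SE, adjusted p = 0.372 in limma) for Stab1 to 0.13 ± 0.39 (SE, adjusted p = 0.927 in limma) for Scara5.

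Scara3 and Scara5 are further class A members. Scara3, also known as a cellular stress response protein, was above background on all 14 arrays. It gave -2.05, 2.21, 1.62, 1.64 and 1.29 on the subcapsular and 0.25, 0.83, 0.29, 1.60 and 1.56 on the medullary LCM arrays. Apart from the single low array, subcapsular replicate 1, the LCM groups overlapped, and the fitted difference was -0.03 ± 0.81 (SE, adjusted p = 0.992 in limma). The FACS arrays gave -0.26 and -1.32 for the subcapsular and 1.21 and -0.17 for the medullary sinus. These did not overlap, like those of 69.6% of all genes, with a difference of 1.31 ± 0.83 (SE), a 95% interval of -0.997 to 3.61 and an adjusted p of 0.305 in limma. Leaving out 1 FACS array moved the difference to between 0.62 and 2.00.

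Scara5 encodes a receptor for ferritin. Its chosen probe was above background on all 14 arrays and gave -1.41, -1.91, -2.42, -0.82 and -2.68 on the subcapsular LCM arrays. The medullary LCM arrays gave -1.79, -2.07, -1.84, -2.62 and -2.59, within the same range. The subcapsular FACS arrays, at -2.84 and -3.12, were the lowest of all 14, and the medullary FACS arrays, at -1.04 and -0.53, were among the 3 highest. In FACS the medullary level was higher by 2.19 ± 0.59 (SE) on the log2 scale, 4.57-fold, with an adjusted p of 0.121 in limma; the LCM difference was -0.34 ± 0.51 (SE, adjusted p = 0.836 in limma). When all 14 arrays entered 1 fit, with array weights and a shared estimate of the spread, the same FACS difference had an adjusted p of 0.0291 in limma, in a fit that called 4417 of 27634 genes (16%). Probe B gave 0.52 ± 1.23 (SE, adjusted p = 0.765 in limma) for the FACS difference, with -1.94 and -2.59 on the subcapsular and -0.23 and -3.26 on the medullary arrays. On probe B the largest value of all was 4.89, on subcapsular LCM replicate 2, while the other subcapsular LCM arrays lay between -5.27 and -1.42.

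Colec12, a class A receptor with a C-type lectin domain that is found on endothelium, was above background on 8 of 10 LCM and 2 of 4 FACS arrays. It gave -0.57, -5.45, -3.51, 1.35 and -1.25 on the subcapsular and -3.14, -2.16, -5.31, -3.51 and -3.14 on the medullary LCM arrays. The subcapsular values covered more than the whole medullary range. The LCM difference was -1.57 ± 1.18 (SE), with a 95% interval of -4.17 to 1.04 and an adjusted p of 0.647 in limma. The FACS arrays gave -6.39 and -3.25 for the subcapsular and -1.92 and -6.40 for the medullary sinus, with 1 of 2 above background in each, and were not tested.

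Stab1 encodes stabilin-1, a large receptor with fasciclin domains that binds acetylated lipoprotein and the matrix protein SPARC and is found on lymphatic endothelium and on some macrophages. It was above background on 13 of 14 arrays. The subcapsular LCM arrays gave 3.12, -3.52, 3.58, 1.97 and 1.53, and the medullary LCM arrays gave -0.05, -1.69, -2.61, -2.02 and -2.07. Subcapsular replicate 2, the only array not above background, was the lowest of all 14, and the other 4 subcapsular arrays were above every medullary one. The LCM difference was -3.02 ± 1.22 (SE), 8.13-fold lower in medullary samples, with an adjusted p of 0.386 in limma. Over 24 alternative settings it ranged from -4.24 to -2.29, and its adjusted p in limma from 0.0594 to 0.593. The setting without subcapsular replicate 2 gave the lowest of both, -4.24 and 0.0594. The FACS arrays gave -3.33 and -0.10 for the subcapsular and -2.03 and -3.02 for the medullary sinus, an overlap, with a difference of -0.81 ± 1.32 (SE, adjusted p = 0.667 in limma).

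Stab2 encodes stabilin-2, a clearance receptor for hyaluronan and other glycosaminoglycans on sinusoidal endothelium. Its chosen probe gave -1.21, -4.30, 3.84, -4.38 and 3.31 on the subcapsular LCM arrays and -4.55, 0.48, 0.50, -4.29 and -4.72 on the medullary ones. Both sinuses thus held high and low arrays with gaps of over 3 log2 units between them. The FACS arrays lay closer together, at -3.10 and -4.74 for the subcapsular and -2.82 and -3.16 for the medullary sinus. The LCM difference was -1.97 ± 1.91 (SE, adjusted p = 0.740 in limma), and the FACS difference was 0.92 ± 0.81 (SE, adjusted p = 0.432 in limma).

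The other Stab2 probes placed different arrays high. Probe B gave -4.69, 2.51, -4.35, -6.80 and -1.92 on the subcapsular LCM arrays and probe C gave -6.07, 4.14, -1.68, 0.48 and -1.20. Replicate 2 was the highest of the 14 arrays on both, whereas it was not above background on the chosen probe. The LCM difference was 0.30 ± 1.68 (SE, adjusted p = 0.965 in limma) on probe B and -4.29 ± 1.76 (SE, adjusted p = 0.390 in limma) on probe C, so that the probes differed in sign. Subcapsular LCM replicate 2 was also the highest of 14 arrays for Marco, for Scara3, for Msr1 probe B and for Scara5 probe B, and it had the lowest share of probes above background, 50.8%. The part of that array's quality in these values was not tested beyond leaving it out.

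Scarf1 and Scarf2 belong to a class of receptors with repeated epidermal growth factor-like domains, and Olr1 encodes the lectin-like receptor for oxidised low-density lipoprotein. Scarf1, which is known from endothelial cells, had 1 probe, which lay between -7.11 and -4.10 and was not above background on any of 14 arrays. Its level in both sinuses is known only as not detected by that probe. Whether the probe can detect the transcript was not tested. Olr1 was above background on 1 of 14 arrays, medullary LCM replicate 4, at -4.76. Scarf2 was above background on 2 of 5 subcapsular and 4 of 5 medullary LCM arrays and on all 4 FACS arrays. Its values ran from -4.99 to -0.20 in subcapsular LCM and from -5.32 to -2.20 in medullary LCM, with a difference of -0.15 ± 1.01 (SE, adjusted p = 0.972 in limma). The FACS arrays gave -3.63 and -3.50 for the subcapsular and -2.98 and -3.57 for the medullary sinus, with a difference of 0.29 ± 0.59 (SE, adjusted p = 0.728 in limma).

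**Figure D3:**
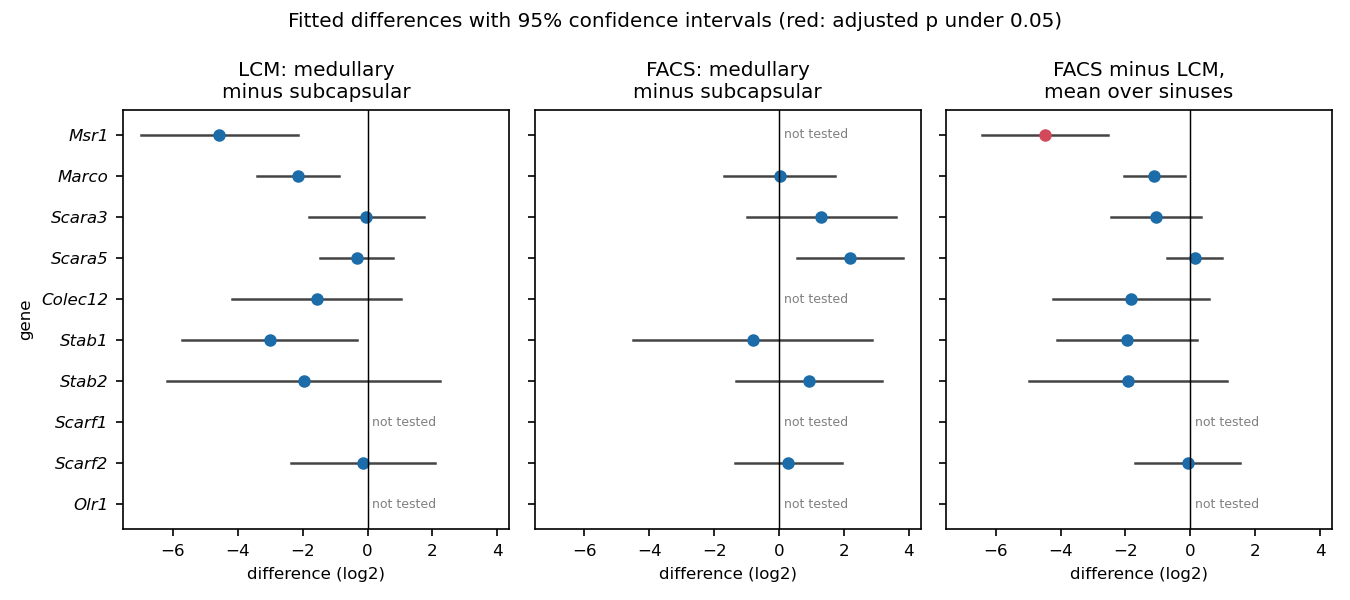
Fitted log2 differences (horizontal axis) with 95% confidence intervals for each receptor gene (vertical axis) in 3 comparisons, red where the adjusted p was under 0.05 and "not tested" where the gene did not pass the filter on background. The LCM intervals of Msr1, Marco and Stab1 lie below 0 without a call, and Msr1 in FACS minus LCM is the only red point.

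Read against all genes, the receptors' LCM result was a set of uncalled negative differences. Of the 10 receptors, 8 were tested in LCM and 0 were called by limma, with 3 (Msr1, Marco and Stab1) at an unadjusted p under 0.05. Across all genes 48 of 27353 (0.175%) were called and 11.7% had an unadjusted p under 0.05. All 8 differences were negative, from -4.57 for Msr1 to -0.03 for Scara3, while the median over all genes was 0.08. The groups did not overlap for Msr1 and Marco, as was so for 845 of 27353 genes (3.09%). In FACS, 6 receptors were tested and 0 were called by limma, with 1 (Scara5) at an unadjusted p under 0.05, where 0 of 27634 genes (0%) were called and 31.9% had an unadjusted p under 0.05. The 2 FACS groups did not overlap for Scara3 and Scara5 among those tested, a state shared by 19237 of 27634 genes (69.6%). The median over all genes in FACS was 0.73, so 3 of the 6 receptor differences lay above it and 3 below.

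The interaction of sinus and isolation, which takes the LCM sinus difference away from the FACS one, was positive for all 8 receptors tested, and limma called none of them. Across all genes 383 of 29654 (1.29%) were called, with a median of 0.52. The interaction of Scara5 was 2.53 ± 0.78 (SE, adjusted p = 0.110 in limma), of Msr1 3.94 ± 1.80 (SE, adjusted p = 0.230 in limma) and of Marco 2.16 ± 0.88 (SE, adjusted p = 0.192 in limma). All 3 had an unadjusted p under 0.05 in limma, as did 21.3% of all genes. Under quantile normalization and with the deposited log2 table, the interaction of Scara5 was called, at 3.07 and 2.91 with adjusted p-values of 0.0391 and 0.0413 in limma, where 3.82% and 3.77% of all genes were called. The other 5 ranged from 0.44 for Scarf2 to 2.89 for Stab2. A difference between isolations in how the sinuses compare was therefore not shown for any receptor in the fit as designed.

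Macrophage markers had the same direction as Msr1 and Marco in LCM. Over 18 macrophage genes, the summed signal over the array's 75th percentile was 573 to 1930 on the subcapsular LCM arrays, 362 to 499 on the medullary LCM arrays, 340 to 374 on the subcapsular FACS arrays and 538 to 540 on the medullary FACS arrays. In FACS the genes of the list did not follow its sum, with 12 of the 17 tested lower in medullary samples, 5 higher, 0 called by limma and a median of -1.91, and Siglec1 had a mean of -1.27 on the medullary against 2.75 on the subcapsular arrays. In LCM 16 of the 17 tested were lower in medullary samples, 0 were called by limma, and the median difference was -1.94. Timd4 was at -3.12 ± 0.56 (SE, adjusted p = 0.0622 in limma), and Siglec1, the macrophage gene for sialoadhesin, at -4.54 ± 0.87 (SE, adjusted p = 0.0843 in limma). In FACS minus LCM 4 of the 18 were called, all lower, with a median of -1.56, and Timd4 and Lyz2 were at -5.27 and -3.33. Across all genes 3.86% were called in that comparison, with a median of 0.17. The share called was 0.627% with the slide as a block and 0% on the medullary arrays of slide 2 alone. Between 14 and 18 of the 18 genes were above background on each array, and no defining marker was below background throughout a group. The part of macrophage RNA in the values of Msr1, Marco and Stab1 was not tested.

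B cell markers had the same direction in LCM, with 8 of 8 at lower medullary levels, a median of -1.37 and 0 called by limma. Their summed signal was 246 to 751 in subcapsular and 127 to 204 in medullary LCM. The 13 lymphatic endothelial markers measured summed to 20.6 to 116 and 22.9 to 57.3 in the LCM groups and to 18.8 and 42.7 on the subcapsular FACS arrays, against 2.34 and 2.47 on the medullary FACS arrays. Pecam1 had the most negative FACS difference of this list, at -8.22, and its members went both ways, with 4 of the 9 tested higher in medullary samples, 5 lower and 0 called by limma. Pdpn had a mean of -0.92 on the medullary and -5.25 on the subcapsular FACS arrays, and Prox1 of -0.81 and -2.76. Only 1 of 2 subcapsular FACS arrays was above background for Pdpn. The medullary FACS arrays on which Scara5 was higher were thus low in Pecam1 and Cdh5 and not in Pdpn or Prox1, and the part of this in the Scara5 difference was not tested.

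**Figure D4:**
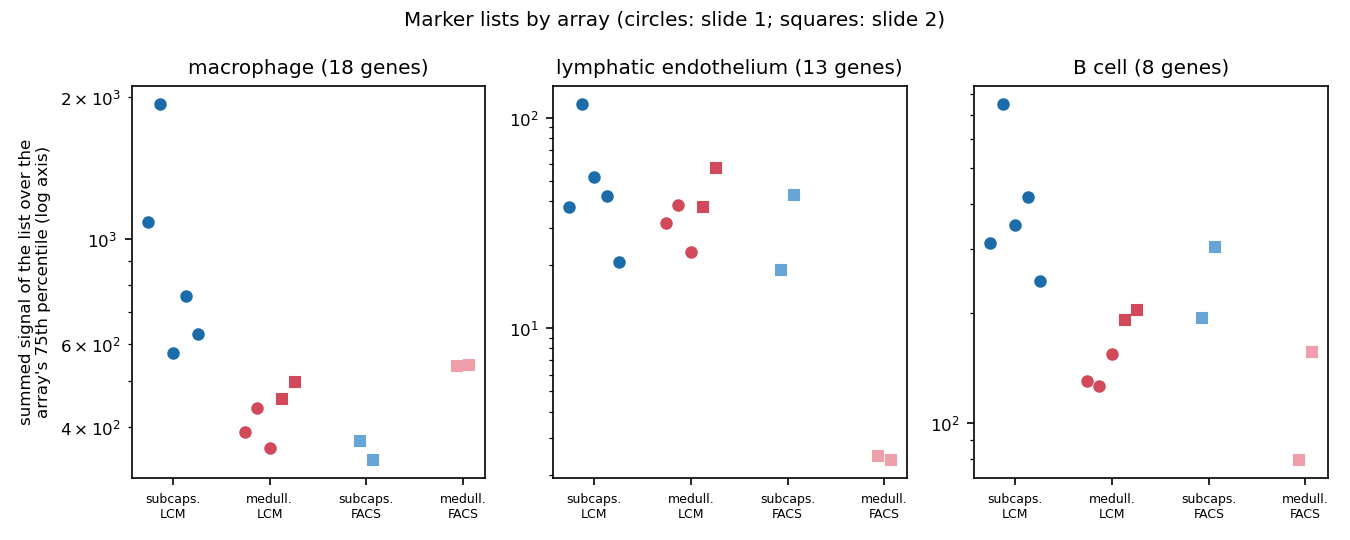
Summed signal of the macrophage, lymphatic endothelial and B cell marker lists over the array's 75th percentile (vertical log axis) in the 4 groups (horizontal axis), 1 point per array, circles on slide 1 and squares on slide 2. The macrophage sums are highest on the 5 subcapsular LCM arrays, the B cell sums of subcapsular LCM overlap with those of subcapsular FACS, and the lymphatic endothelial sum is lowest on the 2 medullary FACS arrays.

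Beyond these 10, a list of 19 other scavenger receptors had 15 members tested in LCM, of which 0 were called by limma, 10 were negative and 5 positive, with a median of -0.62. Cd36, a class B receptor for fatty acids and oxidised lipoprotein, was at -4.83 ± 0.81 (SE, adjusted p = 0.0530 in limma). Cd44, the hyaluronan receptor, was at -1.65, and Mrc1, the mannose receptor, at -2.49. In FACS 16 were tested and 0 called, with a median of 0.47. In FACS minus LCM 18 were tested and 0 called, with a median of -0.06.

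Of 12 genes for proteins that scavenger receptors bind, 12 were tested in LCM and 0 called by limma, with 9 negative and a median of -1.03. C1qa, a complement component, was at -4.09 ± 1.01 (SE, adjusted p = 0.188 in limma). In FACS minus LCM 4 of these 12 were called, all lower. Across all genes 3.86% were called in that comparison (0.627% with the slide as a block and 0% on the medullary arrays of slide 2 alone). Among the 4 were Sparc, a ligand of stabilin-1, at -3.73 (adjusted p = 0.00281 in limma) and Postn, a matrix protein, at -4.17 (adjusted p = 0.0124 in limma). Of the fibroblastic reticular markers, 4 of 8 tested were also called lower in that comparison, with a median of -2.665. The part of fibroblastic cells in the Sparc and Postn values was not tested. Of 18 genes of the uptake machinery, 18 were tested in LCM and 0 called by limma, with 14 negative and a median of -1.28. Cltc, the clathrin heavy chain, was at -1.98 ± 0.56 (SE, adjusted p = 0.234 in limma). In FACS minus LCM 3 of these 18 were called, all lower, among them Cltc at -3.20 and Rab7, a late endosome GTPase, at -4.32. In the interaction 1 of the 18 was called, Rab7 at -6.07 (adjusted p = 0.0293 in limma). Across all genes 1.29% were called in the interaction, and 0% with the replicate block.

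The genes whose pattern over the 14 arrays lay closest to a receptor were found by the root mean square difference of centred log2 levels among 14891 genes. For Marco, whose own SD over the arrays was 1.24, they were Cd44 at 0.51 and Gna12 at 0.54. For Msr1, with an SD of 3.32, they were Gt(ROSA)26Sor and Igsf6, both at 1.63. For Stab1, with an SD of 2.42, they were Mmrn1, a lymphatic endothelial gene, at 1.39 and Zfp938 at 1.41. For Scara5, with an SD of 0.80, they were Cpz at 0.32 and Olfr1157 at 0.37. The nearest genes of Stab2, Cep85l and Lyrm1, lay at 1.66 and 1.70 against its SD of 2.99, and those of Colec12, Rrm2b and Clec4b1, at 1.23 and 1.35 against 2.22. Those of Scara3, Tdpoz7 and Sting1, lay at 0.72 and 0.73 against 1.23, and those of Scarf2, Ten1 and Zfp708, at 0.84 and 0.86 against 1.35. These arrays share their slides and isolations, and the distances are a description of 14 arrays.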

How the data were processed

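Agilent Feature Extraction 10.7.3.1 made the scanner files, per the file headers, and gave each spot a background-corrected intensity and a call of being well above background. A value table on the log2 scale was deposited as well, and its making is not given in the sources used here. RNA was amplified with the SuperAmp method and labelled with Cy3, per the labels' protocols.

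The intensity was log2 transformed, and the 75th percentile over non-control probes of the array was subtracted. Spots marked as outliers, 87 to 202 per array, were left out, and repeated spots were averaged (10 for Scara3). The receptors were matched by the file's symbol, and other genes were named through RefSeq accessions (27235 probes), current (3581) or older (565) symbols, or the file's name (24300). For each gene the brightest probe by mean signal was used.

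To be tested in LCM, a gene had to be above background on 3 or more of the 5 arrays from either sinus. In FACS both arrays from either sinus were required, and fits of all 14 arrays took genes that met either rule. Differences were tested with lmFit and eBayes of limma 3.58.1 (R 4.3.3, with the data.table package, version 1.17.8), and those with a Benjamini-Hochberg adjusted p under 0.05 over all tested genes were called. The 14-array fits estimated a mean for each of 4 groups and weighted arrays by isolation. Errors of group means are SD and of fitted differences SE. The scripts were tested on simulated data. Plots were made in Python 3.11.15 using matplotlib 3.10.9.

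The named genes were the 10 receptors, up to 3 members of each list by lowest unadjusted p, 13 fixed marker genes (1 of them is not reported here), and the 2 genes most like each receptor that was above background on at least 7 arrays. The receptors and lists were chosen with earlier results of these data known. Ccl21a was not matched by name. The lists of 8 T cell, 8 dendritic cell, 14 blood endothelial and 10 fibroblastic reticular markers had median LCM differences of 0.91, 0.04, 2.36 and -0.64. In LCM, where 0.175% of all genes were called, 3 of 14 blood endothelial markers were called higher and none of the other 3 lists. In FACS none was called. In FACS minus LCM, where 3.86% of all genes were called, 4 of 8 fibroblastic reticular markers tested were called lower (median -2.665). In that comparison 2 of 8 dendritic cell markers were called higher, 1 of 14 blood endothelial markers lower and 0 T cell markers. The interaction, where 1.29% of all genes were called, had 2 of 14 blood endothelial markers called lower and none of the other 3 lists.

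The labels call the samples biologic replicates and do not tie them to animals, so p-values measure the spread between these samples. Same-numbered samples of the 2 sinuses did not deviate together, with correlations of -0.019 to 0.0052 in LCM and -0.011 in FACS, so the numbers were not used to pair samples. Alternatives were other background corrections, scalings, filters, probes, blocks and fits, and leaving out each array.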

Additional observations from a re-analysis of the deposited data

Results flagged for a closer look

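Among 20 sets of 5 LCM arrays (10 receptors in each sinus), 2 held an array whose gap to its nearest neighbour was more than 0.71 of the group's whole range. Chance gives about 1 in 20 such groups.

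Scara3 on subcapsular LCM replicate 1 was at -2.05, and the nearest of the other 4 arrays was at 1.29, a gap of 0.784 of the range.

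Stab1 on subcapsular LCM replicate 2 was at -3.52 and not above background, and the nearest of the other 4 arrays was at 1.53, a gap of 0.712 of the range.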

How the results depend on the processing

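Msr1 and Marco kept a negative LCM difference and no call under all 25 and 24 alternatives, and Stab1 did so under all 24. Of the receptor calls, 1 receptor (Scara5) instead of 0 was called in FACS in the joint fit of 14 arrays, where 16% of all genes were called, and 1 (Scara5) instead of 0 in the interaction under quantile normalization and with the deposited log2 table. In FACS minus LCM 0 receptors instead of 1 (Msr1) were called with the slide as a block, on slide 2 alone with medullary arrays and, in an alternative chosen after seeing the data, on medullary arrays only; leaving out an array gave 0 to 1. The causes were not tested.

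Called genes as a share of those tested were 0.175% in LCM. This share was 0.0292% with normexp, 0.0548% with quantile normalization, 0.837% with the percentile taken over probes detected on every array, 0.0585% with the deposited table, 0.508% with the stricter filter, 0.464% with the slide block, 0.0512% with the row block, 0.989% on slide 1 alone and 0.0884% to 0.394% without 1 array. It moved by over 1.5 times without subcapsular replicate 5 or medullary replicate 2, 4 or 5. The replicate block gave 0% in LCM, FACS and the interaction. The FACS share of 0% was 6.51% under a trended, robust eBayes and 16% in the joint fit of 14 arrays. The interaction share of 1.29% was 2.27%, 3.82% and 3.77% with normexp, quantile and the deposited table, 0.731% without a filter, 0.361% without array weights and 0.0355% to 4.07% without 1 array, and each FACS array moved it by over 1.5 times. The FACS minus LCM share of 3.86% was 0.627% with the slide block, 0% on slide 2 alone, 2.52% without weights, 1.17% in subcapsular and 6.46% in medullary arrays only, and 2.04% to 5.38% without 1 array, where each subcapsular FACS array moved it by over 1.5 times. The split of calls also moved with the scaling: in LCM 46 were higher and 2 lower, against 6 and 2 with normexp, 10 and 5 with quantile normalization and 11 and 5 with the deposited table. In the interaction they were 164 and 219, against 371 and 301 with normexp and 106 and 343 with the other percentile, and in FACS minus LCM 539 and 606, against 359 and 624 with normexp and 790 and 559 with the other percentile.

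Signs that turned were all of uncalled differences. In LCM Scara3 was at 0.27 with quantile normalization, 0.70 with the other percentile, 0.25 with the deposited table, 0.16 with the row block and -0.78 to 0.28 without 1 array; Scara5 was at 0.40 with the other percentile. Scarf2 was at 0.59 with the other percentile, 0.11 with the slide block and on slide 1, and -0.57 to 0.62 without 1 array. In FACS Marco was at -0.082 with normexp and -0.34 to 0.39 without 1 array, Stab1 at -2.42 to 0.81 without 1 array, Stab2 at -0.021 for the mean of its probes, and Scarf2 at -0.45 and -0.44 with quantile and the deposited table and -0.0051 to 0.59 without 1 array. In the interaction Colec12 was at -0.012 to 4.46 without 1 array, and Scarf2 at -0.19 with the other percentile and -0.33 to 0.86 without 1 array. In FACS minus LCM Scara5 was at -0.088 and -0.091 with quantile and the deposited table and -1.13 in subcapsular arrays only. Stab2 was at 0.73 with the slide block and 1.51 on slide 2 alone. Scarf2 was at 0.16 with the other percentile, 0.44 with the slide block, 0.53 on slide 2, 0.15 in medullary arrays only and -0.31 to 0.31 without 1 array. Stab2 probe B gave 0.30 in LCM, -1.88 in FACS, -2.17 in the interaction and 0.63 in FACS minus LCM.

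The other percentile moved the median of all genes in LCM from 0.08 to 0.81, and normexp to -0.16; in FACS quantile normalization moved it from 0.73 to 0.43. Relative to these medians Msr1, Marco and Stab1 stayed lower in medullary LCM. Depth is limited by signal near the floor, where 3 of 4 FACS values of Msr1 lie, and by the 2 arrays of each FACS group; of 40 group levels, 21 moved by more than 1 SD with normexp.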
